A study of Arabidopsis thaliana with 109 samples.

Results

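The nuclear genes of the light-harvesting antenna, the photosystems and the small subunit of Rubisco were followed in Arabidopsis thaliana seedlings moved from white light to light with a low ratio of red to far-red (low R:FR, which imitates the shade of other plants). The 46 genes were taken as a list of locus identifiers, out of 33602 gene models in the expression tables, and all 46 were found in each table. They comprise 9 genes of the LHCII trimer antenna (LHCB1.1 to LHCB1.5, LHCB2.1 to LHCB2.3 and LHCB3), 5 of the minor photosystem II antenna (LHCB4.1 to LHCB4.3, LHCB5 and LHCB6), 6 of the photosystem I antenna (LHCA1 to LHCA6), 10 of photosystem II, 12 of photosystem I and 4 of the Rubisco small subunit (RBCS1A, RBCS1B, RBCS2B and RBCS3B). Photosystem II is represented by PSBO1, PSBO2, PSBP1, PSBQ1, PSBQ2, PSBR, PSBS, PSBW, PSBX and PSBY, and photosystem I by PSAD1, PSAD2, PSAE1, PSAE2, PSAF, PSAG, PSAH1, PSAH2, PSAK, PSAL, PSAN and PSAO. Among the 109 samples of the study, 29 are RNA-seq libraries of light-grown seedlings, deposited as 3 tables that were analysed separately. The first table holds wild type (Col-0) kept for 2 h in low R:FR, wild type returned to white light for 2 h after such a treatment (recovery), and wild type in white light, with 3 libraries each. The second holds 1 line, labelled pif457_PIF7:PIF7:4xMYC and called the PIF7-MYC line below, with 3 libraries each for white light and for 5 min, 10 min and 30 min in low R:FR. The third holds the mutant pif457 and wild type, each after 30 min of low R:FR and in white light, with 2 libraries each. By its label the PIF7-MYC line carries PIF7 with a 4xMYC tag in the pif457 background, the construct name placing it behind PIF7's own promoter. Every library of the second table therefore shares the mutant background and the transgene, and the second table holds no untagged line.

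Light-harvesting proteins bind chlorophyll and pass absorbed energy to the reaction centres, LHCB proteins mainly at photosystem II and LHCA proteins at photosystem I. The genes described here are nuclear and their products are imported into the plastid, where they join subunits encoded by the plastid genome. The Rubisco small subunit joins the plastid-encoded large subunit in the enzyme that fixes carbon dioxide. Many LHCB genes are known to respond to light through phytochrome and to follow the circadian clock, and PIF transcription factors, among them PIF4, PIF5 and PIF7, bind G-box sequences (CACGTG) and act in shade responses.

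Transcript levels are given in TPM, which are scaled for gene length and library, so that levels of different genes in 1 library can be compared. The members were among the most abundant nuclear messenger RNAs of these seedlings. In white light, 42 of 46 ranked in the top 100 in the first table, 42 in the second and 41 in the third, and 9, 9 and 8 of them ranked in the top 10. Together they took between 14.2% and 23.2% of all TPM of a library. In wild type in white light of the first table RBCS1A ranked first among nuclear messenger RNAs, with 26725, 30505 and 30897 TPM, and LHCB1.3 ranked second, with 33955, 25601 and 22243 TPM. In white light of the other tables LHCB1.3 ranked first and RBCS1A second, with 29163, 25994 and 28377 TPM for LHCB1.3 in the PIF7-MYC line and 22912 and 28167 TPM in wild type. The order of this pair was not stable between libraries: in the first table the white-light libraries of the 2 genes overlap. At the other end stood LHCB4.3, a CP29 isoform, at 8.14, 12.4 and 19.9 TPM in white light of the first table, followed by LHCA6, at 148, 139 and 129 TPM, and LHCA5, at 166, 159 and 165 TPM. These LHCA proteins are minor, substoichiometric parts of the photosystem I antenna, and their levels lay far below those of LHCA1 to LHCA4, none of which averaged under 1000 TPM in white light. All 46 members were above 0 in every library, the lowest single value being 8.14 TPM for LHCB4.3, so none was lost to the removal of genes at 0 in every library.

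**Figure D1:**
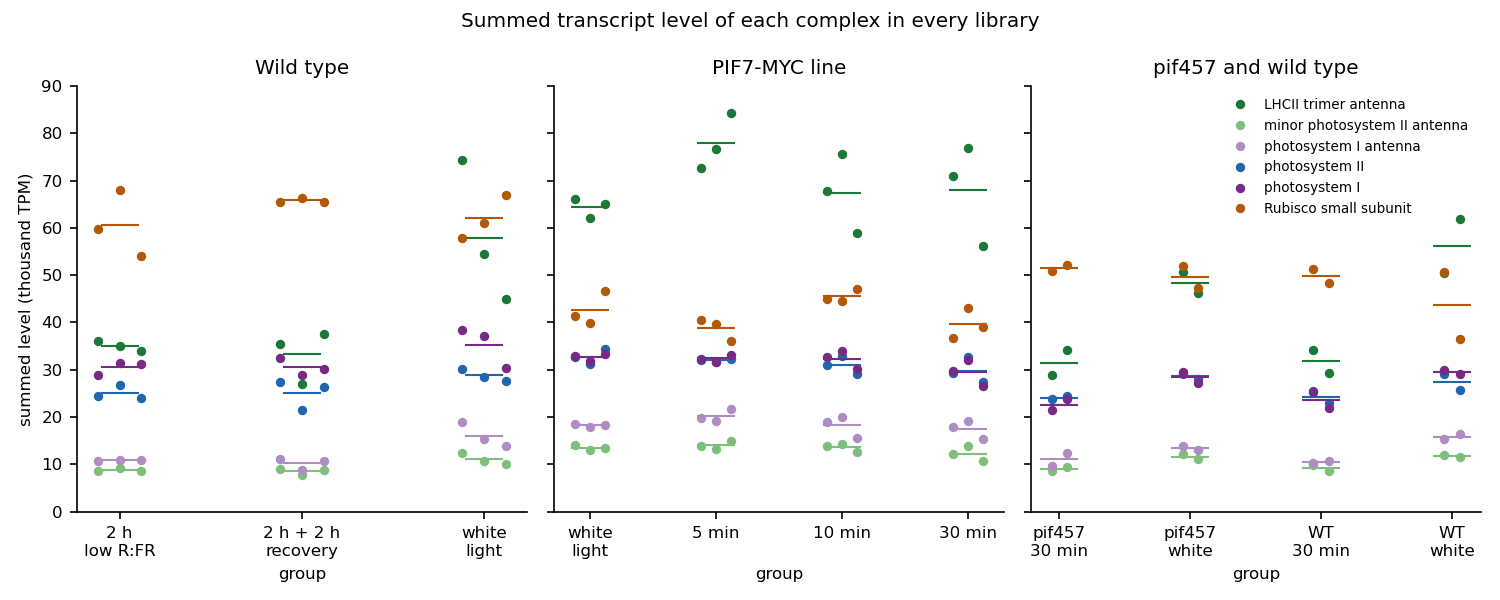
Summed level of the members of each complex (TPM, vertical axis in units of 1000) in every library of the 3 tables (points, by group), with the group mean as a dash. The LHCII sum lies at 33939.7 to 36148 TPM at 2 h and 26929 to 37648 TPM in recovery, below all 3 white-light libraries of wild type (45059 to 74391 TPM), while the Rubisco small subunit sums of these groups overlap.

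Each family was dominated by 1 or a few genes. LHCB1.3 alone exceeded the other LHCB1 genes together in wild type in white light of the first table, where the LHCB1 family summed to 48469 ± 12999.7 TPM (SD, n = 3). LHCB4.1 was the most abundant gene of the minor antenna in that group (5211, 4722 and 4575 TPM), LHCA1 of the photosystem I antenna (6241, 4828 and 4284 TPM), PSBR of photosystem II (11000.5, 9714 and 9856 TPM) and PSAE1 of photosystem I (7961, 7579 and 6946 TPM). PSBR is a small lumenal subunit near the oxygen-evolving complex, and PSAE1 encodes a stromal subunit at the ferredoxin docking side of photosystem I. Several of these genes are near-identical neighbours. LHCB1.1, LHCB1.2 and LHCB1.3 stand next to each other on chromosome 1, LHCB1.4 and LHCB1.5 as well as LHCB2.1 and LHCB2.2 on chromosome 2, and RBCS1B, RBCS2B and RBCS3B on chromosome 5. How reads were divided among such copies is uncertain for single values of these genes. In the first table the white-light libraries differed most from each other in the LHCII genes: the median coefficient of variation of these 9 genes in wild type in white light was 22.1%. After 2 h of low R:FR in the same table it was 5.57%.

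Sites bound by PIF7 near the members were read from the authors' deposited tables of binding events, 1 for 3 samples a side (998 events), 1 for low R:FR at ZT4 over IgG (1052 events) and 1 for 30 min of low R:FR over white light (1408 events). The first of these names as its low R:FR samples 3 that their own labels give as white light, so it is used for positions and sequence words. Its strengths enter only an alternative count in the closing section. Within 3 kb of the gene, 6 of 46 members (13.0%) had an event in the first table, against 6.4% of all protein-coding genes, 4 (8.7%) in the ZT4 table, against 6.06%, and 4 (8.7%) in the 30 min table, against 8.67%. The last share is close to that of all genes. Within 1 kb the shares were 10.9%, 4.35% and 6.52% of members in the 3 lists, against 3.29%, 3.06% and 4.61% of all genes. LHCB2.3, LHCA2, PSBO1 and PSBQ2 had an event in all 3 tables, and RBCS1B and RBCS2B shared 1 event in the first table alone. For LHCB2.3, PSBQ2 and RBCS2B the member itself was the gene nearest to the event. LHCA2 was the gene nearest to 1 of its 2 events in each list, at chr3:22744532 in the first, where no word was given. In the ZT4 and 30 min lists this event, at chr3:22744513 and chr3:22744516, had the word cacatg, which is not the G-box. The other LHCA2 event, whose word is shown, lay nearer to another gene. Both events near PSBO1, which encodes the manganese-stabilizing protein of photosystem II, lay nearer to another gene. The sequence words that the event caller reported at these positions in the first table are shown because they hold the G-box that PIF proteins bind. The G-box is in capitals and each word is in the orientation the caller gave.
LHCB2.3, chr3:10255819: taCACGTGaat
PSBQ2, chr4:2673384: ttgtCACGTGgct
LHCA2, chr3:22742609: agcaCACGTGgtacgt
PSBO1, chr5:26572304: atctCACGTGa
PSBO1, chr5:26572385: tgcCACGTGgcag
RBCS2B, chr5:15382190: gatCACGTGgcag
Positions are on TAIR10. All 6 words hold the G-box, 4 continue with G and 3 with GC. Events without a word are not among these 6: of the 7 events near members in that list, 6 carried a word with CACGTG. Among all events of that list 79.7% did, so the G-box is the usual word there and not particular to these genes. At LHCB2.3 the authors' deposited tables gave a fold over control of 3.3 at ZT4, where the median event had 4.0, and of 3.4 at 30 min, where it had 4.4. Ranked by strength the event stood at 480 of 1052 and 491 of 1408. An event is a position called by the authors, and no expression value was compared by it.

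The first comparison asked how the members of wild-type seedlings stood after 2 h of low R:FR, against white light. None of the 46 members passed the test upward and 2 passed it downward, LHCB2.1 and LHCA4 (limma on log2(TPM + 1), Benjamini-Hochberg adjusted over all genes of the table, call at 0.05). Over all 25331 genes tested, 1.24% were called raised and 0.734% lowered. The antenna was lower in most libraries, the photosystem subunits differed less, and the Rubisco genes had no common direction. In 23 of 46 members all 3 libraries at 2 h lay below all 3 in white light, against 8.27% of all genes. Antenna genes made up 15 of these 23. The median log2 difference was -0.79 for LHCII, -0.45 for the photosystem I antenna, -0.24 for the minor antenna, -0.20 for photosystem I, -0.17 for photosystem II and -0.01 for Rubisco, where it was -0.01 for all genes tested. Recovery was set against the same white-light libraries, so the values of both comparisons are given side by side and are not independent. In recovery 3 members were called lowered, LHCB2.1, LHCB2.2 and LHCB2.3, and none was called raised, where 0.316% and 0.395% of all genes were called lowered and raised. The 3 recovery libraries lay below all white-light libraries in 23 of 46 members, against 7.54% of all genes. The medians were -0.98 for LHCII, -0.52 for the photosystem I antenna, -0.28 for the minor antenna, -0.24 for photosystem I, -0.21 for photosystem II and 0.14 for Rubisco, where it was 0.00 for all genes tested. In bulk samples, fewer cells of a type and less RNA per cell cannot be told apart, and since the titles give no hour of harvest, light and hour cannot be told apart either.

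**Figure D2:**
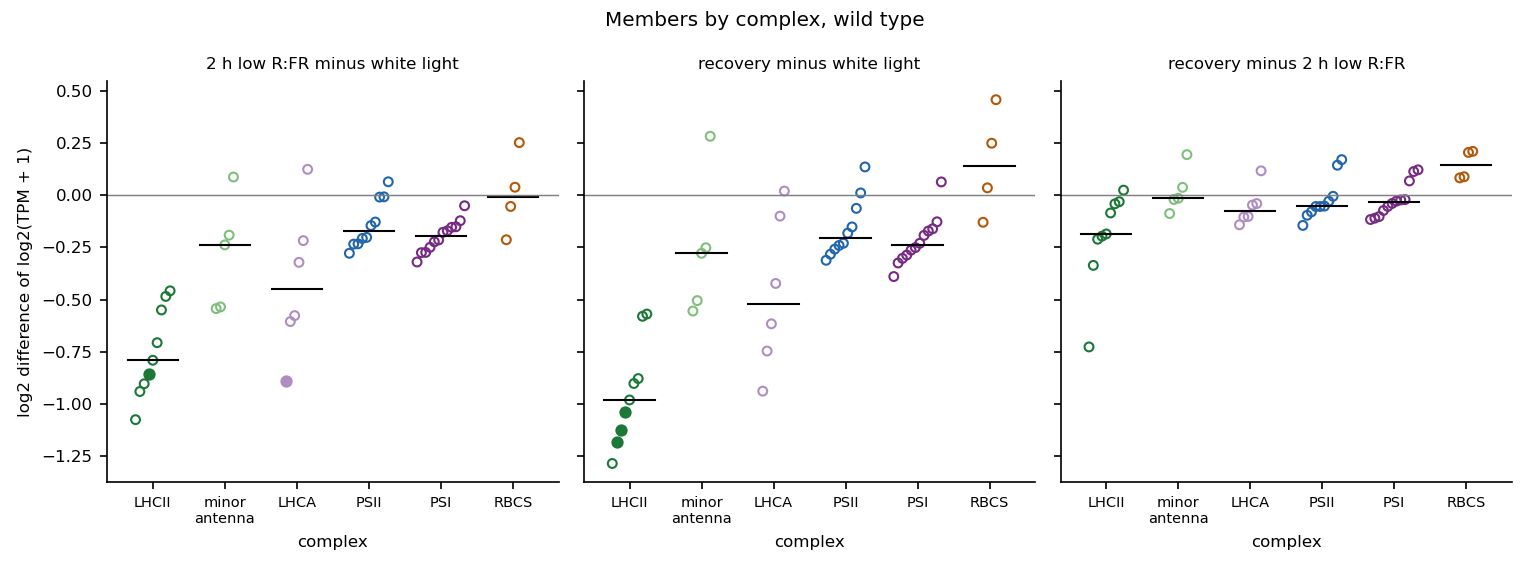
Log2 difference of each member (circles, vertical axis) by complex in wild type for 2 h of low R:FR minus white light, recovery minus white light and recovery minus 2 h. Filled circles are members called at an adjusted p under 0.05 and black lines are medians of each complex. The LHCII circles all lie below 0 in the first 2 panels, with a median of -0.79 and -0.98, and the Rubisco circles lie around 0.

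The LHCB2 genes encode a subunit of the LHCII trimer whose phosphorylation is used to move antenna between the photosystems. LHCB2.1 (AT2G05100) had 1826, 1634 and 1834 TPM at 2 h and 1629, 1392 and 1642 TPM in recovery, against 3932, 3104 and 2653 TPM in white light. All libraries of both groups lay below the lowest white-light library. It fell at 2 h (log2 -0.85, 95% interval -1.23 to -0.47, adjusted p = 0.0347) and in recovery (log2 -1.04, 95% interval -1.42 to -0.66, adjusted p = 0.0271). LHCB2.2 (AT2G05070) had 1498, 1262 and 1356 TPM at 2 h and 1166, 961 and 1138 TPM in recovery, against 2923, 2471 and 1839 TPM in white light. These groups do not overlap with white light either. The test was passed in recovery (log2 -1.13, 95% interval -1.53 to -0.73, adjusted p = 0.0237). It was not passed at 2 h (log2 -0.79, 95% interval -1.19 to -0.39, adjusted p = 0.059). LHCB2.3 (AT3G27690), the gene nearest to the PIF7 event with the word taCACGTGaat, had 1304, 1081 and 1064 TPM at 2 h and 719.9, 579.6 and 792 TPM in recovery, against 1973, 1536 and 1284 TPM in white light. Its 2 h libraries overlap with white light. Its recovery libraries lie below both other groups. It was called in recovery (log2 -1.18, 95% interval -1.59 to -0.78, adjusted p = 0.0213) and not at 2 h (log2 -0.46, 95% interval -0.86 to -0.05, adjusted p = 0.275). Leaving out 1 library at a time ended the calls on LHCB2.1 and LHCA4 at 2 h in 5 of 6 cases and each of the 3 calls in recovery in 4 of 6, at adjusted p of up to 0.143, with all log2 differences from -0.70 to -1.33. The calls ended without any 1 library of the 2 h or recovery group and without white light replicate 2, and those at 2 h also without white light replicate 1. With near-identical copies summed, LHCA4 alone was called at 2 h.

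**Figure D3:**
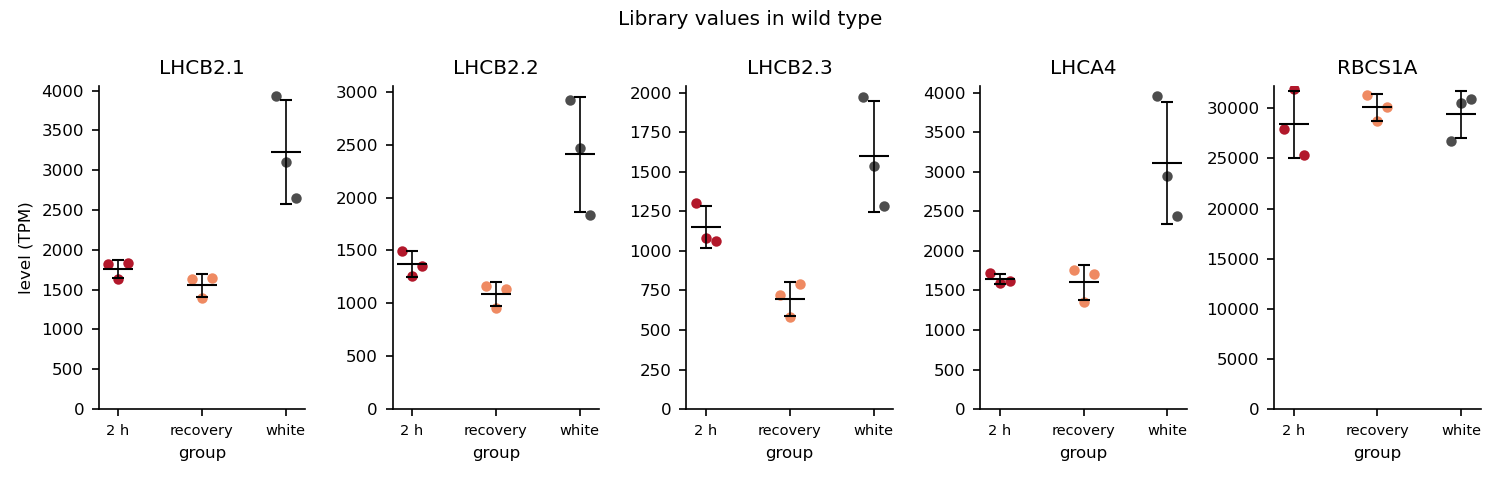
Level (TPM, vertical axis from 0) of the 4 members called in wild type and of RBCS1A in each library (points) after 2 h of low R:FR, in recovery and in white light, with mean and SD in black. LHCB2.3 is at 719.9, 579.6 and 792 TPM in recovery, below every library of the other groups, and the RBCS1A groups overlap.

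The LHCB1 genes encode the most abundant subunit of the LHCII trimer, and LHCB3 a subunit of the moderately bound trimers. LHCB1.3 had 18609, 18923 and 17511 TPM at 2 h and 18933, 14926 and 20482 TPM in recovery, against 33955, 25601 and 22243 TPM in white light. The groups do not overlap and neither difference passed the test (log2 -0.55, 95% interval -1.33 to 0.23, adjusted p = 0.547 at 2 h and log2 -0.58, 95% interval -1.36 to 0.20, adjusted p = 0.563 in recovery). LHCB1.4 had the lowest log2 differences of all members, -1.08 at 2 h and -1.29 in recovery, with 2060.4, 2027 and 2111 TPM at 2 h and 1941, 1325 and 2213 TPM in recovery, against 7237, 3951 and 2890.0 TPM in white light. White light replicate 1 was the highest of the 3 for every LHCB1 and LHCB2 gene, and for LHCB1.4 it was far above the others. Its differences did not pass the test (adjusted p = 0.126 and 0.102). LHCB1.1 had an adjusted p of 0.0595 at 2 h and LHCB3 of 0.0624 in recovery, both just above the threshold, with log2 differences of -0.90 and -0.90. The LHCII sum was 35028 ± 1105 TPM at 2 h and 33363 ± 5674 TPM in recovery, against 57951 ± 14985 TPM in white light (SD, n = 3 each), which is 0.604 and 0.576 times the white-light mean.

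Among the other antenna genes, LHCA4, which with LHCA1 forms a pair of the photosystem I antenna, had 1716, 1595 and 1624 TPM at 2 h and 1754, 1351 and 1703 TPM in recovery, against 3956, 2950.3 and 2439 TPM in white light. No library of the treated groups reached the white-light range. LHCA4 fell at 2 h (log2 -0.89, 95% interval -1.32 to -0.47, adjusted p = 0.0474), and in recovery it stood as low without passing the test (log2 -0.94, 95% interval -1.37 to -0.51, adjusted p = 0.0582). Its partner LHCA1 had 3241, 3257 and 3473 TPM at 2 h and 3301, 2543 and 3255 TPM in recovery, against 6241, 4828 and 4284 TPM in white light. It was lower in every library and not called (log2 -0.61, adjusted p = 0.177 and log2 -0.75, adjusted p = 0.131). LHCB5, the CP26 protein that connects trimers to the photosystem II core, had 2012, 1917 and 1794 TPM at 2 h and 1998, 1699.8 and 1956 TPM in recovery, against 3203, 2626 and 2505 TPM in white light. There was again no overlap and no call (log2 -0.54, adjusted p = 0.118 and log2 -0.55, adjusted p = 0.141). LHCB4.1, a CP29 isoform and the most abundant minor antenna gene, stood closer to white light, with 3930.3, 4561 and 4222 TPM at 2 h and 4284, 3788 and 3891 TPM in recovery, against 5211, 4722 and 4575 TPM. Its log2 differences were -0.19 and -0.28, with intervals of -0.57 to 0.19 and -0.66 to 0.11. At 2 h LHCB4.3 and LHCA5 had log2 differences of 0.09 and 0.12, and the 18 others were below 0.

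The photosystem subunits lay slightly lower and none was called. Photosystem II summed to 25092 ± 1479 TPM at 2 h and 25064 ± 3050.3 TPM in recovery, against 28805 ± 1287 TPM in white light (SD, n = 3 each). PSBR had 8176, 9333 and 7745 TPM at 2 h and 9633, 6603 and 9207 TPM in recovery, against 11000.5, 9714 and 9856 TPM in white light. All libraries at 2 h and in recovery were below white light (log2 -0.28, 95% interval -0.84 to 0.28, and log2 -0.28, 95% interval -0.84 to 0.28). The photosystem II gene with the smallest p was PSBY at 2 h (log2 -0.23, adjusted p = 0.532), with 2090.3, 2289.9 and 2234 TPM at 2 h against 2447, 2766 and 2569.6 TPM in white light. In recovery it was PSBW (log2 -0.31, adjusted p = 0.461), with 1687, 1345 and 1411 TPM in recovery against 2124, 1870.2 and 1542 TPM in white light. PSBS, the sensor of the lumen acidity that switches on heat dissipation, showed little difference at 2 h (log2 -0.01, 95% interval -0.29 to 0.28). Photosystem I summed to 30489 ± 1444 TPM at 2 h and 30532 ± 1743 TPM in recovery, against 35307 ± 4366 TPM in white light, with overlapping libraries. Its most abundant gene, PSAE1, had 6082, 6837 and 6461 TPM at 2 h and 6415, 5625 and 6402 TPM in recovery, against 7961, 7579 and 6946 TPM in white light (log2 -0.21 and -0.29, 95% intervals -0.66 to 0.23 and -0.73 to 0.16). The smallest p among its 12 genes belonged to PSAD2 at 2 h (915, 879.9 and 914 TPM, against 1153, 1239.6 and 912 TPM in white light, log2 -0.27, adjusted p = 0.387) and to PSAN in recovery (1116, 772 and 1030.0 TPM, against 1314, 1266 and 1200.2 TPM in white light, log2 -0.39, adjusted p = 0.285). PSAD encodes the stromal subunit that binds ferredoxin and PSAN a lumenal subunit on the plastocyanin side.

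Of the 4 Rubisco small subunit genes, 2 lay below 0 and 2 above at 2 h, and 1 below and 3 above in recovery. They summed to 60575 ± 7029 TPM at 2 h and 65818 ± 482 TPM in recovery, against 61990.3 ± 4691 TPM in white light (SD, n = 3 each), and these libraries overlap. RBCS1A, the most abundant, had 27932, 31877 and 25325 TPM at 2 h and 31363, 28712 and 30151 TPM in recovery, against 26725, 30505 and 30897 TPM in white light. The groups overlap. RBCS1B had 9158, 10406 and 8528 TPM at 2 h and 9861, 11723 and 10788 TPM in recovery, against 7134, 7382 and 9118 TPM in white light. It was higher in all recovery libraries than in any white-light library, without passing the test (log2 0.46, 95% interval -0.08 to 1.00, adjusted p = 0.48, and log2 0.25, adjusted p = 0.67 at 2 h). A common scale of the 2 groups of genes in wild type is their share of nuclear messenger RNA: LHCII took 3.84% at 2 h and 3.57% in recovery, against 6.15% in white light, and Rubisco 6.61% and 7.08%, against 6.59%. No test of the difference between the complexes was made.

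Recovery was also set against 2 h of low R:FR, which asks whether 2 h back in white light moved the members. No member was called, where 1.11% of all genes were called in either direction. An unadjusted p under 0.05 was found for 1 of 46 members, where 2216 of 25331 genes tested had one. That member was LHCB2.3, which was lower in every recovery library than in any library at 2 h, with 719.9, 579.6 and 792 TPM in recovery against 1304, 1081 and 1064 TPM at 2 h (log2 -0.73, 95% interval -1.13 to -0.32, adjusted p = 0.136). LHCB2.1 and LHCB2.2 also stood lower in recovery, with log2 differences of -0.19 and -0.34 that were not called. For LHCB2.2 every recovery library lay below every library at 2 h, and for LHCB2.1 the groups overlap. The LHCB2 sum was 3339 ± 354 TPM in recovery and 4286 ± 327 TPM at 2 h, without overlap (SD, n = 3 each). The median over all members was -0.04, and it changed sign to 0.05 without recovery replicate 2, the recovery library with the lowest antenna values. The other smallest p of a complex were log2 0.21, adjusted p = 0.894 for RBCS2B, log2 0.17, adjusted p = 0.844 for PSBY, log2 -0.10, adjusted p = 0.854 for LHCA5, log2 -0.12, adjusted p = 0.907 for PSAN and log2 0.20, adjusted p = 0.937 for LHCB4.3. The 95% interval of LHCA4 was -0.47 to 0.38 and that of LHCB1.3 -0.81 to 0.75, where the log2 difference at 2 h was -0.89 for LHCA4 and -0.55 for LHCB1.3. The differences at 2 h have their own spread and use the same 2 h libraries. These intervals alone therefore do not decide whether either gene returned fully to its white-light level. Against white light directly, as given above, all recovery libraries of both genes lay below all white-light libraries, without a call. The interval of that difference was wholly negative for LHCA4 and not for LHCB1.3.

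Genes that work beside the members were counted in the same fit. Of 10 genes of electron transport and ATP synthase, of 13 of the Calvin cycle and of 8 other photosystem subunits and assembly factors, none was called at 2 h or in recovery. Their median log2 differences were 0.07, -0.00 and -0.05 at 2 h, and 0.02, -0.02 and -0.10 in recovery. None of 7 plastid-encoded photosystem and Rubisco genes was called in either comparison. Of 8 transcriptional regulators, which include factors of plastid as well as of nuclear transcription, 0 were raised and 2 lowered at 2 h. The lowered regulators were SIG5 (log2 -0.99, adjusted p = 0.00684), a sigma factor of the plastid RNA polymerase, and CGA1 (log2 -1.05, adjusted p = 0.0172), a GATA factor of chloroplast development. In recovery 1 was raised, the GATA factor GNC (log2 0.85, adjusted p = 0.0301). Between recovery and 2 h both CGA1 (log2 1.53, adjusted p = 0.00274) and GNC (log2 0.95, adjusted p = 0.011) were raised. GLK2, an activator of antenna genes, was not called at 2 h (log2 -0.39, adjusted p = 0.0921). Of 10 clock genes 2 were lowered at 2 h, CCA1 (log2 -1.10, adjusted p = 0.00143) and PRR7 (log2 -1.04, adjusted p = 0.0246), and CCA1 was also lowered in recovery (log2 -1.17, adjusted p = 0.00333). CCA1 is known to bind promoters of LHCB genes and its level falls through the day. Its part in the antenna values was not tested. Of 10 root markers none was called at 2 h or in recovery. Their summed level was 889 to 1418 TPM at 2 h and 931 to 1117 TPM in recovery, against 1158 to 1663 TPM in white light, with NRT2.1 and WER each at 0 in 1 of 9 libraries. Most of this sum was PYK10 (838 to 1571 TPM over these libraries), and the next marker, CASP1, reached 41.0 TPM.

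The PIF7-MYC line was used to ask whether the members move within 30 min. No member was called after 5, 10 or 30 min, against 3.88%, 6.43% and 4.83% of all genes called in either direction. Among 46 members such shares would be few genes, so the lack of calls is not read as a difference from all genes. The median standard error was 0.121 over the members and 0.102 over genes of mean 5 TPM or more. Of 46 members, 3, 3 and 4 had an unadjusted p under 0.05 at 5, 10 and 30 min. The share of all genes under that limit is not given here, so these counts are not read as an excess. The median log2 difference of the members was 0.01 at 5 min, -0.01 at 10 min and -0.15 at 30 min, and that of all genes of mean 5 TPM or more 0.04, 0.06 and 0.07. At 30 min 40 of 46 members lay below 0 (87.0%), against 33.8% of all genes. In 6 of 46 all libraries lay below those of white light, where 5.26% of all genes did. The shade marker ATHB2 rose in the same libraries at 10 min (log2 1.60, adjusted p = 0.000583) and 30 min (log2 5.61, adjusted p = 2.98e-09).

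**Figure D4:**
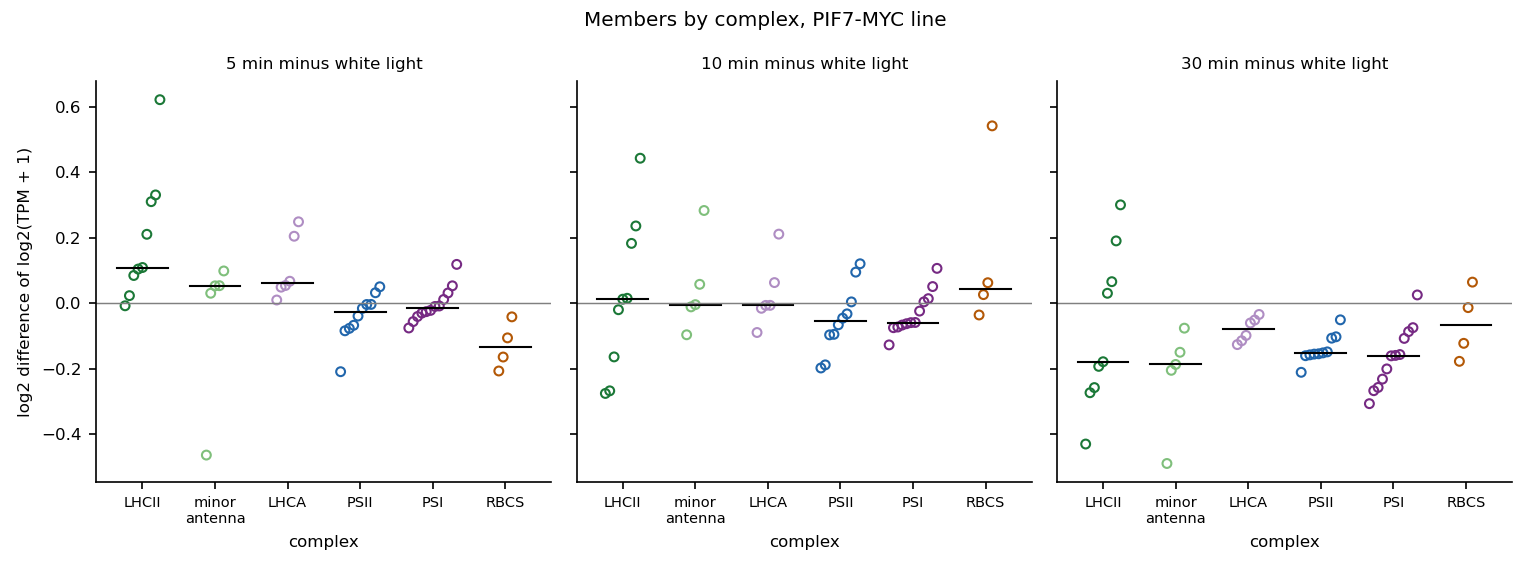
Log2 difference from white light of each member (circles, vertical axis) by complex in the PIF7-MYC line after 5, 10 and 30 min of low R:FR, with the median of each complex in black. No circle is filled, since no member was called, and the LHCII medians are 0.11, 0.01 and -0.18.

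At 5 min 8 of 9 LHCII genes had log2 differences above 0, and at 30 min 4 of 9 had. LHCB1.4 had 5045, 4525 and 4413 TPM in white light, 6442, 7001 and 8142 TPM at 5 min, 6137, 7406 and 5569.6 TPM at 10 min and 5972, 6835 and 4611 TPM at 30 min. All 5 min and 10 min libraries were above white light (log2 0.62, 95% interval 0.20 to 1.04, adjusted p = 0.1 at 5 min, and log2 0.44, 95% interval 0.02 to 0.86, adjusted p = 0.165 at 10 min). LHCB2.3 had 933, 1223 and 1080.0 TPM in white light, 1143, 966 and 1099 TPM at 5 min, 1154, 1209.6 and 907 TPM at 10 min and 797, 988 and 639 TPM at 30 min. At 30 min it was lower with overlap (log2 -0.43, 95% interval -0.80 to -0.06, adjusted p = 0.187). The LHCB2 sum was 6692 ± 338 TPM in white light and 5511 ± 901 TPM at 30 min, with all 30 min libraries below white light. The LHCB1 sum was 53788 ± 2227 TPM in white light and 59105 ± 9365 TPM at 30 min, with overlap (SD, n = 3 each). The difference between the families was not tested. LHCB4.3 was lower at 5 min and 30 min and higher at 10 min, without overlap each time: it had 24.9, 25.9 and 30.1 TPM in white light, 21.5, 20.5 and 16.1 TPM at 5 min, 30.7, 31.0 and 37.4 TPM at 10 min and 15.4, 22.7 and 19.2 TPM at 30 min. None of these differences was called (log2 -0.46, adjusted p = 0.118 at 5 min, log2 0.28, adjusted p = 0.255 at 10 min and log2 -0.49, adjusted p = 0.0953 at 30 min).

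RBCS2B, one of the adjacent small subunit genes, was the Rubisco gene with the smallest p. It had 3566, 4223 and 4631 TPM in white light, 4257, 4054 and 3706 TPM at 5 min, 5535, 5779.8 and 6729.9 TPM at 10 min and 3576, 5266 and 4235 TPM at 30 min. Every 10 min library was above the white-light libraries and also above those at 5 and 30 min, without a call (log2 0.54, 95% interval 0.16 to 0.92, adjusted p = 0.0817). PSAK, a small photosystem I subunit on the antenna side, had 2217, 2170.4 and 2191 TPM in white light and 1704, 1956 and 1671 TPM at 30 min, lower in every library (log2 -0.31, 95% interval -0.51 to -0.10, adjusted p = 0.0917). The remaining smallest p of a complex were at 5 min log2 0.25, adjusted p = 0.47 for LHCA4, log2 -0.21, adjusted p = 0.254 for PSBS, log2 0.12, adjusted p = 0.507 for PSAE2 and log2 -0.16, adjusted p = 0.557 for RBCS1B. At 10 min they were log2 0.21, adjusted p = 0.12 for LHCA6, log2 -0.20, adjusted p = 0.28 for PSBO2 and log2 -0.13, adjusted p = 0.478 for PSAD1. At 30 min they were log2 -0.13, adjusted p = 0.271 for LHCA5, log2 -0.21, adjusted p = 0.315 for PSBX and log2 -0.18, adjusted p = 0.691 for RBCS3B. Among the neighbouring lists, at 10 min 1 of 13 Calvin cycle genes was lowered, the aldolase FBA1 (log2 -0.44, adjusted p = 0.0341), and 1 of 10 electron transport genes, the ferredoxin FD1 (log2 -0.77, adjusted p = 0.0278). Lowered were also 2 of 8 regulators, GLK1 (log2 -0.34, adjusted p = 0.026), an activator of antenna genes, and SIG1 (log2 -0.47, adjusted p = 0.0197). At 5 min and 30 min none of the genes of these lists was called. Nor was any plastid-encoded gene at any of the 3 times. Of 10 clock genes, LUX (log2 0.62, adjusted p = 0.0226) and TOC1 (log2 0.42, adjusted p = 0.0263) were raised at 5 min and LUX at 10 min (log2 0.66, adjusted p = 0.0188). At 30 min TOC1 was raised (log2 0.34, adjusted p = 0.0489) and PRR9 lowered (log2 -0.68, adjusted p = 0.037). The summed level of 10 root markers was 414 to 852 TPM in white light, 678 to 751 TPM at 5 min, 1038 to 1125 TPM at 10 min and 859 to 935 TPM at 30 min, and NRT2.1 was at 0 in 5 of 12 libraries. PYK10 made up most of this sum (403 to 1062 TPM over these libraries), and the next marker, TIP2;3, reached 34.9 TPM. At 10 min 1 marker was called raised, PYK10 (log2 0.93, adjusted p = 0.026). Its part in the member values was not tested.

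The third table sets 30 min of low R:FR against white light in pif457 and in wild type, and so asks whether the members move without PIF4, PIF5 and PIF7. In pif457 no member was called, against 0.0123% of all genes called in either direction, and in wild type none was called, against 0.119%. An unadjusted p under 0.05 was found for 13 members in pif457 and 17 in wild type. These counts are given without the share of all genes and are not read as an excess. With 2 libraries a group the fit called 3 genes of any kind in pif457 and 29 in wild type, out of 24384 tested. Most antenna genes had lower values at 30 min in both genotypes. All libraries at 30 min lay below those in white light in 34 of 46 members in pif457, against 26.1% of all genes, and in 30 of 46 in wild type, against 12.4%. The median log2 difference of the LHCII genes was -0.58 in pif457 and -0.90 in wild type, that of the photosystem I antenna -0.27 and -0.42, of photosystem I -0.35 and -0.33, of photosystem II -0.21 and -0.17 and of Rubisco 0.02 and 0.25. These genotypes share no library, and 38 of 46 members (82.6%) were below 0 in both, where 25.8% of all genes were. In pif457 the whole table was shifted, the median of all genes tested being -0.14, against 0.05 in wild type. After centring on the median gene the members' median was -0.14 in pif457, with 30 of 46 below 0, and -0.37 in wild type, with 40 of 46. The medians by complex above are not centred. As shares of nuclear messenger RNA, LHCII at 30 min was 0.725 times white light in pif457 and 0.562 times in wild type. Photosystem I was 0.890 and 0.797 times, photosystem II 0.946 and 0.885 times, and Rubisco 1.165 and 1.153 times. Leaving out genes of mean TPM under 1 before the fit gave 10 lowered members in pif457 and 10 in wild type, 5 of them the same genes (LHCB1.2, LHCB1.4, LHCB1.5, LHCB2.2 and LHCB3). With this filter 3.16% of all genes were called in pif457 and 3.3% in wild type, in either direction, and limma's prior degrees of freedom were 576.5, against 4.018 without it.

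**Figure D5:**
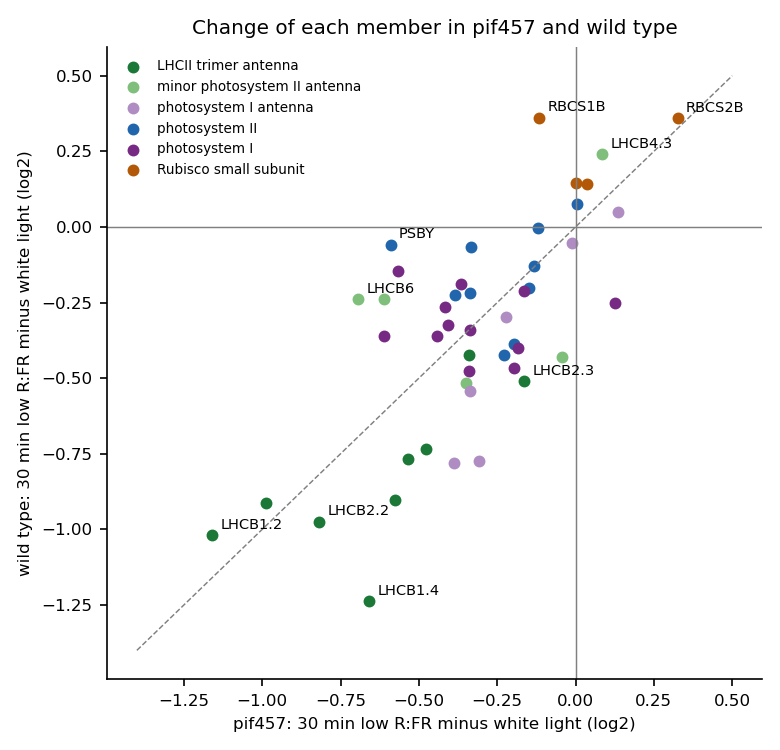
Log2 difference of each member between 30 min of low R:FR and white light in pif457 (horizontal axis) and in wild type (vertical axis), coloured by complex, with the line of equal change dashed. The LHCII points lie in the lower left, from -1.16 in pif457 and -1.02 in wild type for LHCB1.2, and the 4 Rubisco points lie above 0 in wild type.

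LHCB1.2 was the LHCII gene with the smallest p in pif457. It had 1269.8 and 1568 TPM at 30 min and 3364 and 2958 TPM in white light in pif457, and 2305 and 2078 TPM at 30 min and 3954 and 4972 TPM in white light in wild type. The libraries of the 2 light groups do not overlap in either genotype (log2 -1.16, 95% interval -1.62 to -0.70, adjusted p = 0.17 in pif457, and log2 -1.02, 95% interval -1.48 to -0.56, adjusted p = 0.123 in wild type). LHCB2.2 was also lower in both, with 678 and 879 TPM at 30 min and 1388 and 1338 TPM in white light in pif457, and 785 and 854 TPM at 30 min and 1409 and 1838 TPM in white light in wild type. Neither difference was called (log2 -0.82, adjusted p = 0.272 in pif457, and log2 -0.97, adjusted p = 0.123 in wild type). LHCB1.4 had a log2 difference of -0.66 in pif457 and -1.24 in wild type, and LHCB1.3 of -0.54 and -0.77, with adjusted p between 0.166 and 0.636. LHCB2.3, the gene nearest to a PIF7 event in all 3 lists, had 713 and 853 TPM at 30 min and 882 and 868 TPM in white light in pif457, and 688 and 730.3 TPM at 30 min and 980.4 and 1039.5 TPM in white light in wild type. Its log2 difference was -0.17 in pif457 (95% interval -0.49 to 0.16) and -0.51 in wild type (95% interval -0.84 to -0.18). Centring on the median gene turned the pif457 value to the other sign. The difference between the genotypes did not pass the test (log2 0.34, 95% interval -0.12 to 0.81, adjusted p = 0.603), which does not show that they were alike. The LHCII sum was 31541 ± 3716 TPM at 30 min and 48427 ± 3050.1 TPM in white light in pif457, and 31818 ± 3439 TPM at 30 min and 56254 ± 8069 TPM in white light in wild type (SD, n = 2 each).

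Outside LHCII the lowest p differed between the genotypes. In pif457 they were PSBY (log2 -0.59, adjusted p = 0.293), LHCB6 (log2 -0.69, adjusted p = 0.347), PSAD1 (log2 -0.57, adjusted p = 0.379), LHCA3 (log2 -0.34, adjusted p = 0.629) and RBCS2B (log2 0.33, adjusted p = 0.752). In wild type they were LHCA1 (log2 -0.78, adjusted p = 0.227), LHCB4.2 (log2 -0.52, adjusted p = 0.311), PSAO (log2 -0.47, adjusted p = 0.423), PSBQ2 (log2 -0.42, adjusted p = 0.495) and RBCS1B (log2 0.36, adjusted p = 0.922). PSBY, a small photosystem II subunit, had 986 and 943 TPM at 30 min and 1444 and 1460.0 TPM in white light in pif457, and 1376 and 1223 TPM at 30 min and 1444 and 1264 TPM in white light in wild type. The light groups are apart in pif457 and overlap in wild type. The interaction of genotype and light for PSBY was the smallest p of any member and did not pass the test (log2 -0.53, 95% interval -1.01 to -0.05, adjusted p = 0.378). No member was called in the interaction, where 0.041% of all genes were. An unadjusted p under 0.05 was found for 1 member, a count given without the share of all genes. LHCB6, the CP24 protein of the minor antenna, had 1644 and 1479.7 TPM at 30 min and 2707 and 2352 TPM in white light in pif457, and 2392 and 1715 TPM at 30 min and 2427 and 2355 TPM in white light in wild type (log2 -0.45, adjusted p = 0.639 for the interaction). LHCA1 had 2219 and 3064 TPM at 30 min and 3366 and 3091 TPM in white light in pif457, and 2403 and 2536 TPM at 30 min and 4012 and 4451 TPM in white light in wild type (log2 0.47, adjusted p = 0.636 for the interaction). The other smallest interaction p were log2 -0.42, adjusted p = 0.61 for PSAD1 and log2 -0.48, adjusted p = 0.715 for RBCS1B. The interaction intervals were wide, with a median standard error of 0.25 over the members on the log2 scale. Of the most abundant genes, LHCB4.1 had log2 differences of -0.61 in pif457 and -0.24 in wild type, PSBR of -0.34 and -0.22, and PSAE1 of -0.42 and -0.27. RBCS1A had 22117 and 23851 TPM at 30 min and 23050.1 and 21720.4 TPM in white light in pif457, and 21593 and 20947 TPM at 30 min and 21911 and 16936 TPM in white light in wild type, with the lowest value in its second white-light library.

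The genotypes were then compared at the same light. In white light no member was called between pif457 and wild type, where 0.0287% of all genes were called in either direction, and at 30 min none was called, where 5.25% were. An unadjusted p under 0.05 was found for 2 members in white light and 3 at 30 min, again without the share of all genes beside these counts. The medians of the members were -0.03 in white light and 0.01 at 30 min, and that of all genes at 30 min was -0.16. After centring on the median gene the members' median at 30 min was 0.23, with 9 of 46 below 0, against 20 of 46 without centring. LHCB4.3 was the member with the smallest p in white light and was higher in every pif457 library at both lights, with 41.1 and 41.1 TPM in pif457 and 25.8 and 29.6 TPM in wild type at 30 min, and 44.3 and 33.8 TPM in pif457 and 29.2 and 18.4 TPM in wild type in white light. Its differences were not called (log2 0.71, 95% interval 0.18 to 1.24, adjusted p = 0.921 in white light, and log2 0.56, 95% interval 0.03 to 1.09, adjusted p = 0.247 at 30 min). The intervals are not adjusted for the number of genes, so an interval that leaves out 0 is not a call. LHCB1.2 was lower in every pif457 library at both lights, again without a call (log2 -0.49, 95% interval -0.95 to -0.03, adjusted p = 1 in white light, and log2 -0.63, 95% interval -1.09 to -0.17, adjusted p = 0.131 at 30 min). The other smallest p of a complex in white light were log2 -0.39, adjusted p = 1 for LHCA1, log2 -0.22, adjusted p = 1 for PSAO, log2 -0.21, adjusted p = 1 for PSBQ2 and log2 0.25, adjusted p = 1 for RBCS3B. At 30 min they were log2 -0.43, adjusted p = 0.166 for PSBY, log2 -0.36, adjusted p = 0.346 for PSAD1, log2 -0.31, adjusted p = 0.608 for RBCS1B and log2 0.13, adjusted p = 0.701 for LHCA5. Of 7 plastid-encoded genes 1 was raised in pif457 at 30 min, PSBD (log2 1.06, adjusted p = 0.0272), and all 7 had positive differences. In the same comparison rRNA and organellar genes took 23.1% of all TPM in pif457 replicate 1 at 30 min, the highest share of any library. Of 10 electron transport, 13 Calvin cycle, 8 other photosystem and 8 regulator genes none was called in any comparison of this table. Root markers moved beside these groups. Between pif457 and wild type at 30 min 6 of 10 were called lowered, CASP2 with the smallest p (log2 -2.59, adjusted p = 0.00789). The summed level of all 10 was 726 to 1105 TPM in pif457 and 1289 to 1482 TPM in wild type at 30 min, against 983 to 1143 TPM in pif457 and 1173 to 1282 TPM in wild type in white light. Here too PYK10 made up most of the sum (720 to 1384 TPM over these libraries), and the next marker, TIP2;3, reached 38.0 TPM. NRT2.1 was at 0 in 2 of 8 libraries. In wild type 9 of 10 were above 0 at 30 min against white light and none was called. The part of root markers and of organellar shares in the member values was not tested.

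The labels were checked against the genes they name. PIF7 (log2 -3.77, adjusted p = 0.00774) and PIF5 (log2 -3.16, adjusted p = 0.00774) were lower in pif457 than in wild type in white light, and PIF4 was not called there (log2 -1.67, adjusted p = 0.297) but was lower at 30 min (log2 -1.47, adjusted p = 0.0299). ATHB2 rose at 2 h in wild type (log2 4.16, adjusted p = 9.03e-06) and at 30 min in wild type of the third table (log2 4.25, adjusted p = 0.000469), and in pif457 it was not called (log2 1.92, adjusted p = 0.0562). The TPM tables give no counts, so depth is unknown. Between 17714 and 19215 genes had at least 1 TPM in a library, and rRNA and organellar genes took 3.27% to 12.8% of TPM in the first table, 1.24% to 5.06% in the second and 4.09% to 23.1% in the third. Since the labels do not state that libraries come from separate cultures, p-values measure the spread between these libraries.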

How the data were processed

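Gene levels in TPM were computed by the authors from RNA-seq reads. The submitters' processing notes name STAR 2.6.0c, RSEM 1.3.0 and TAIR10, and Bowtie2 2.1.0 and GEM for binding data (the GEM version is not given in the sources used here). PIF7 events were deposited by the authors with a strength signal, a fold over control and a −log10 q value for each event, and the number of replicates behind them was taken from the deposited file descriptions.

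Each of the 3 TPM tables was fitted alone with limma 3.58.1 (R 4.3.3), with a mean-variance trend, on log2(TPM + 1), with all its groups in 1 fit. Fold changes are therefore on that scale and are understated for low genes. Genes at 0 in every library were left out (25331, 24589 and 24384 genes tested). P-values were Benjamini-Hochberg adjusted over all genes of a table and called under 0.05. Levels are in TPM with no counts, so depth and counting error are unknown.

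Any of the 46 members could be named. Values in every library were given mainly for the members with the smallest p in each complex and comparison and for the most abundant ones, and up to 3 related genes per list were named by smallest p. The members, the 8 lists of related genes (71 genes) and the tests were chosen with earlier results of these data known. Events within 3 kb of a gene were counted. Alternatives were the pseudocount, a filter on mean TPM, removal of rRNA and organellar genes, centring, a replicate block, fits of the compared groups only, summed copies, leaving out each library, and other event limits. Gene neighbours came from RefSeq (TAIR10.1). Promoter sequences were not analysed here. Python 3.11.15, pandas 2.3.3 and matplotlib 3.10.9 were used.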

Additional observations from a re-analysis of the deposited data

How the results depend on the processing

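Of 102 member and comparison pairs named in the text, alternative settings gave 1327 values, of which 1245 kept direction and side of the threshold, 49 passed it anew, 31 lost it and 2 changed sign. The sign changes were LHCB2.3 in pif457 at 30 min after centring on the median gene (log2 0.0293, adjusted p = 0.947 by limma) and PSAN between recovery and 2 h, which ranged from -0.22 to 0.0420 without 1 library at a time.

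The number of members called moved most with a filter on mean TPM of at least 1, to 8 at 2 h, 10 in recovery, 1 each at 5, 10 and 30 min in the PIF7-MYC line, 10 in pif457 and 10 in wild type at 30 min, and 1 between the genotypes at 30 min. All genes called also rose in number with it, to 700 at 2 h (main 500), 361 in recovery (180), 1292, 2063 and 1507 at 5, 10 and 30 min in the PIF7-MYC line (955, 1582 and 1188), 593 in pif457 (3) and 619 in wild type (29) at 30 min, and 1732 between the genotypes (1280). With this filter limma's prior degrees of freedom became 576.5 in the third table, against 4.018 without it. Removing rRNA and organellar genes gave 5 at 2 h and 6 in recovery, and centring gave 5 and 5, and 1 in wild type at 30 min. With only the compared groups 0 were called at 2 h, 0 in recovery, 5 in pif457 at 30 min and 1 between the genotypes at 30 min. Summing near-identical copies left 1 at 2 h. The cause of these moves was not tested.

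The replicate block gave 0 calls at 2 h and 1 in recovery, and no other count changed. Correlations of the deviations of same-numbered samples ranged from -0.10 to 0.06 in the first table, -0.29 to 0.33 in the second and -0.26 to 0.37 in the third. In no comparison with 3 pairs did every pair exceed 0.1, so the numbers of the first and second tables are not read as pairs. With 2 libraries a group in the third table, both pairs give the same value by construction. It was 0.37 between the white-light groups, 0.13 between the wild-type groups and -0.26 between the pif457 groups. In wild type, rRNA and organellar genes took 4.36% and 4.45% of TPM in replicate 1 and 12.5% and 12.8% in replicate 2. Pairing in the third table is therefore not settled. Leaving out 1 library gave 0 to 3 calls at 2 h, 0 to 4 in recovery, 0 to 2 at 30 min in the PIF7-MYC line, 0 to 2 in pif457 at 30 min, and 0 in the other comparisons. Where this left 1 library in a group, that library was assumed to vary like the others.

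The summed TPM of the members in pif457 at 30 min was 0.832 times that in white light, and 0.930 times with rRNA and organellar genes removed. Members near a PIF7 event numbered 2 in the list of 3 samples a side when events above the median strength were kept (4.35%, against 3.29% of all genes). Which light the strengths of that list belong to is in doubt, since its description and the sample labels differ. Within 1 kb, 2 members had an event in the ZT4 list (4.35%, against 3.06%). In the 30 min list 4 members (8.7%, against 4.67%) kept an event above the median strength.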
